A study of Mus musculus with 6 samples.

Results

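DNA damage checkpoint and repair genes were described across 6 Affymetrix arrays of 4T1 cells, a mouse mammary carcinoma line. They form a list of 45 genes grouped by their roles, and the list was chosen with earlier results of these data known. Of these, 44 had a probe set with exactly 1 gene symbol among the 19938 genes of the table, and Xrcc2 was not analysed here. The arrays came from 3 dishes given the vehicle DMSO and 3 given 500 nM TKI258. TKI258 (dovitinib) is an inhibitor of several receptor tyrosine kinases, those of the FGF family among them. Cells of both groups had grown for 24 h from 750000 per dish, and the agent was then left on for 16 h in medium with 10% serum. The labels name no agent besides DMSO and TKI258, and DNA damage was not measured. All dishes hold 1 cell line, so the p-values measure the spread between dishes of that line.

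Cells keep several repair routes side by side. Homologous recombination copies the sister chromatid to mend broken DNA in S and G2 phase, and the Fanconi anaemia proteins unhook crosslinks that stop replication forks. Mismatch repair corrects copying errors, end joining ligates broken ends without a template, and excision repair removes damaged bases or distorted stretches of a strand. The checkpoint kinases ATM and ATR sense breaks and stalled forks and hold the cell cycle through CHK2 and CHK1. Many of these genes are transcribed most in cycling cells, under E2F factors.

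After TKI258, repair genes fell. Of the 44 measured members 29 were lower and 1 was higher in limma at an adjusted p below 0.05, and 14 did not pass. Over all genes 12.6% were lower and 14.4% higher, together 27%. The median log2 change of the members was -0.405, against 0.015 over all genes. Of the 44 members 32 had non-overlapping groups with TKI258 below, all 29 that fell among them, and 2 with TKI258 above. Over all genes 18.8% had non-overlapping groups with TKI258 below, 21.4% with TKI258 above and 40.2% in either direction. Most falls were moderate, with 17 members between -1 and -0.50 and 11 nearer to 0 than that. Only Ercc1 fell to less than a factor of 0.5 of its DMSO level. The 14 members that did not pass had log2 changes from -0.21 to 0.12 and 95% intervals that reached from -0.36 to 0.30.

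**Figure D1:**
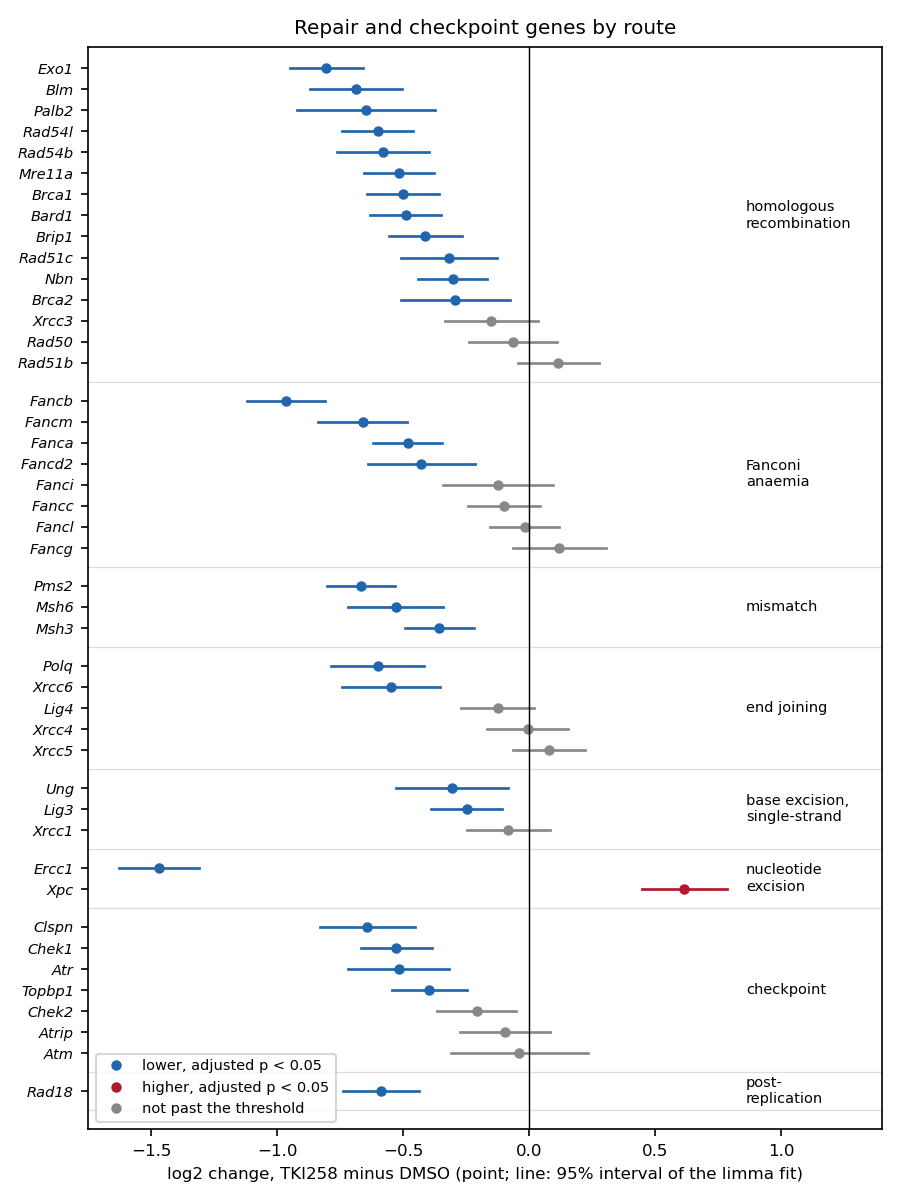
The plot of log2 changes by route shows 44 repair and checkpoint genes, TKI258 minus DMSO, as points with the 95% interval of the limma fit as lines. Blue points (29) were lower and the red point (Xpc) higher at an adjusted p below 0.05, and grey points (14) did not pass. Ercc1 lies farthest to the left, at -1.47, and all 3 mismatch repair genes are blue.

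The arrays were alike within groups. Correlations over all genes were 0.997 to 0.998 within a group and 0.988 to 0.99 between groups, and array medians lay between 4.97 and 5.04 log2 units. No member had a group mean below 5.59, and the median of all probe sets was 5.01. Epithelial markers, those of the labelled carcinoma line, had a mean log2 level of 8.24 to 8.31 in DMSO and 8.52 to 8.58 in TKI258 arrays, with 5 of 10 higher (Cdh1 by 1.09, Cldn4 by 0.89 and Krt19 by 0.94 among them) and 2 lower. All 6 lymphocyte markers measured were dimmer than that median and 0 passed, with Cd79a closest at -0.16 (adjusted p = 0.297 in limma, and 0 at an unadjusted p under 0.05). Of 10 macrophage markers 7 were dimmer than it, and 2 fell, 2 rose and 6 did not pass. Cd53 changed by -1.76, Fcer1g by -0.33, Cd68 by 0.82 and Cd14 by 0.74. The mean level of 8 fibroblast markers was 5.19 to 5.29 in DMSO and 5.71 to 5.77 in TKI258 arrays. Of these 8 only 2 passed, Pdgfra higher by 1.5 and Dcn by 2.01, and the other 6 did not. Of 7 endothelial markers Eng was higher by 0.43, and of 5 adipocyte markers 0 passed in limma (Cidec at 0.19, adjusted p = 0.147). The part of these markers in the results on repair genes was not tested.

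Markers of the cell cycle moved with the repair genes. Of 18 measured proliferation genes 14 fell and 0 rose, with a median log2 change of -0.475. The cyclin genes Ccne2 and Ccne1 and the repressor gene E2f8 fell, with changes of -1.19, -0.93 and -1.19, while Mki67 had a change of -0.19 (adjusted p = 0.365) and Top2a of -0.15 (adjusted p = 0.195) in limma. In RNA from whole dishes, fewer cells in S phase and less of a transcript per cell cannot be told apart, and the part of the cell cycle in the falls of repair genes was not tested.

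**Figure D2:**
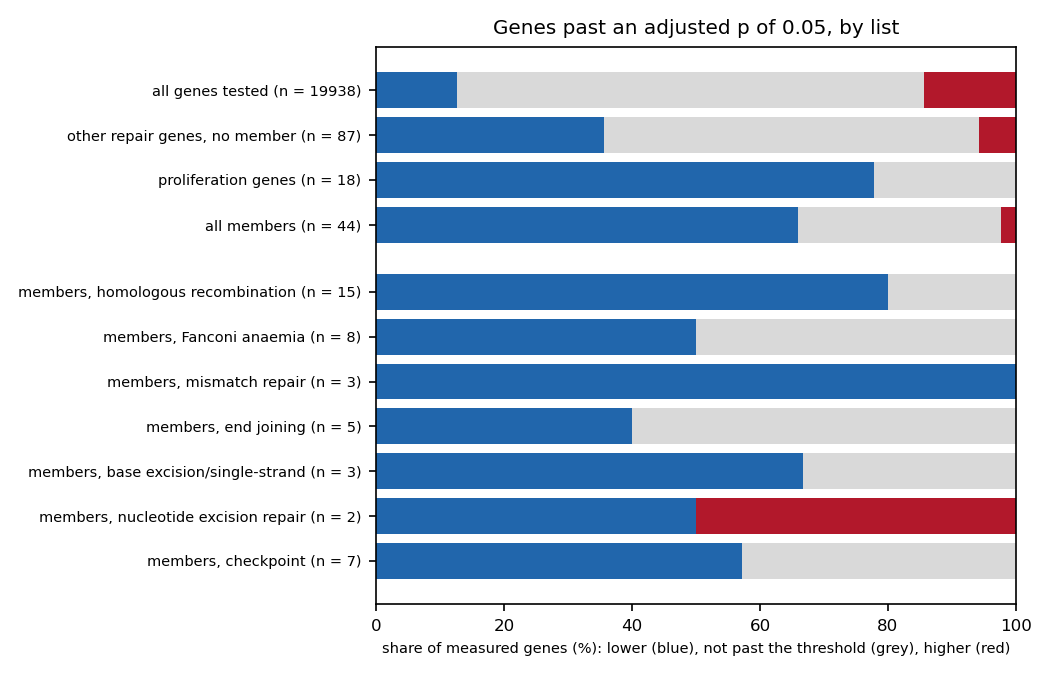
The bars give the share of measured genes (%) that were lower (blue), did not pass (grey) or were higher (red) at an adjusted p below 0.05 in TKI258 against DMSO. All 44 members, their routes (the 1 post-replication gene is not drawn), 87 other repair genes and 18 proliferation genes are set beside all 19938 genes. Members were lower in 65.9% of cases, homologous recombination members in 80%, the other repair genes in 35.6% and all genes in 12.6%.

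The promoters of the members were searched because many fell together. RefSeq windows of 250 bases before to 50 after a gene's start (GRCm38.p6) were found for 38 of the 44 members, and not for Rad50, Rad54b, Nbn, Exo1, Fancd2 and Xpc. The E2F site was searched as TTTGGCGC, TTTCGCGC, TTTCCCGC and TTTGCCGC on both strands. At least 1 of these words stood in the windows of 10 of 38 members, or 26.3%, against 3.48% of 15614 tested genes and 2.6% of 27025 genes in the whole table. Among members that fell it was 8 of 25, and among those that did not pass 2 of 13. All genes that fell had it in 7.7% of cases, and the proliferation genes in 8 of 15. The element TTTGAA, known as CHR, stood in 3 of 38 members (7.89%) against 17.3% of tested genes, and CCAAT in 21 of 38 (55.3%) against 41.7%. These matches describe letters in the windows and are not shown to be bound.

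The 30 bases around each E2F word are shown so that the words can be compared between members that fell and those that did not pass. Capitals mark the word, which reads forward on the strand given, and the 5′ end is on the left.
Clspn (fell, chr4:126556990-126557019, minus strand): gaagttcgagcTTTCGCGCccagacgcggt
Xrcc6 (fell, chr15:82016312-82016341, minus strand): gcccactcgcaTTTCCCGCttccaccccct
Msh6 (fell, chr17:87975054-87975083, plus strand): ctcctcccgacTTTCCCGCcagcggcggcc
Bard1 (fell, chr1:71103163-71103192, minus strand): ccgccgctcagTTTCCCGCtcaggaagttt
Topbp1 (fell, chr9:103305187-103305216, minus strand): cgggaaccgacTTTCGCGCcaaccgagcgg
Msh3 (fell, chr13:92355187-92355216, minus strand): ttgccgtcaagTTTGGCGCGAAAtcgcagc
Rad51c (fell, chr11:87404477-87404506, minus strand): gtttccagcgcTTTCGCGCctcttgctcta
Rad51c (fell, second annotated start, chr11:87404941-87404970, plus strand): gaccccttgctTTTCCCGCcctcgcggggg
Brca2 (fell, chr5:150522442-150522471, minus strand): gtgtgtgtctgTTTCCCGCtgtggcctaaa
Chek2 (did not pass, chr5:110839820-110839849, minus strand): cgacgtcttggTTTCCCGCggctaatcccg
Fancg (did not pass, chr4:43010335-43010364, minus strand): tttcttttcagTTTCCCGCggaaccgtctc
In Msh3 a second word on the other strand overlaps the first, so the capitals run longer there.

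The members with the largest falls that the table holds, Ercc1 and Fancb, carry none of the E2F words in their windows. These windows of 300 bases were chosen by the size of the fall and are shown in full. The capitals in Fancb mark a CCAAT. The Ercc1 window holds neither CCAAT nor TTTGAA. It begins downstream of the first base of the gene's RefSeq span (chr7:19344067), so the bases around that upstream start are not in it.
Ercc1 (chr7:19344821-19345120, plus strand): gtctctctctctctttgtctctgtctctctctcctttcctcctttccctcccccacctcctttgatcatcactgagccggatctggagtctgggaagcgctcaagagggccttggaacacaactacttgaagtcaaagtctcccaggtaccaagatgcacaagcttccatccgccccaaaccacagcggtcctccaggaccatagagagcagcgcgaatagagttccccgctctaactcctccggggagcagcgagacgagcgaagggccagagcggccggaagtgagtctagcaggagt
Fancb (chrX:164980342-164980641, plus strand): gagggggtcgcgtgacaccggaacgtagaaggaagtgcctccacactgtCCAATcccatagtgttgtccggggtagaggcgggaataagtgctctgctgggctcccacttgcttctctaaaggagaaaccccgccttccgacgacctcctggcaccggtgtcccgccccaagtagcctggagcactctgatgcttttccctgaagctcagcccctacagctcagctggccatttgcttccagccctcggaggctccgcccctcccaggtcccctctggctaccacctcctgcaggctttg

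Homologous recombination fell most broadly of the routes with more than 3 members. Of its 15 measured members 12 were lower and 0 higher, with a median log2 change of -0.49. The largest falls of the route were those of Exo1 and Blm. Exo1, the nuclease that resects broken ends, had a log2 signal of 8.78, 8.81 and 8.81 in the DMSO arrays and 8.03, 7.91 and 8.03 in the TKI258 arrays. The groups were far apart, and the log2 change was -0.81 (SE 0.06, adjusted p = 2.73e-05), or 0.572 of the DMSO level. Blm, the Bloom syndrome helicase that dissolves crossed strands, read 8.89, 8.89 and 8.81 in DMSO and 8.28, 8.22 and 8.02 in TKI258 arrays, a change of -0.69 (SE 0.08, adjusted p = 0.000239).

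The genes of the BRCA1-BARD1 ligase and its helicase partner fell. Brca1, whose product directs broken ends to recombination, read 8.63, 8.61 and 8.57 in DMSO and 8.16, 8.07 and 8.07 in TKI258 arrays. Its ubiquitin ligase partner Bard1 read 7.86, 7.89 and 7.94 against 7.46, 7.39 and 7.37. Their log2 changes, -0.50 and -0.49 (SE 0.06 for each, adjusted p = 0.000332 and 0.000381), were nearly equal, and in neither gene did the groups overlap. All 3 probe sets of Bard1 were lower when tested singly, at -0.49, -0.53 and -0.48. Brip1, the helicase that binds BRCA1, fell by 0.41 (SE 0.06, adjusted p = 0.00122).

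Palb2, which joins BRCA1 to BRCA2, read 6.26, 6.25 and 6.2 in DMSO and 5.38, 5.49 and 5.90 in TKI258 arrays. The TKI258 dishes spread more widely than the DMSO dishes, with replicate 3 closest to the controls, and the change was -0.65 (SE 0.12, adjusted p = 0.00326). Brca2, which acts early in strand exchange, read 7.28, 7.20 and 7.09 in DMSO and 7.03, 6.97 and 6.70 in TKI258 arrays. Its fall of 0.29 lay at the edge of the threshold (SE 0.10, adjusted p = 0.0494). That call was lost without any of the DMSO arrays or without TKI258 replicate 2 or 3, at adjusted p from 0.0555 to 0.161, within a range of 0.0188 to 1 over its alternatives.

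The genes of the strand-exchange motors, Rad54l and Rad54b, both fell, and of 3 measured genes of accessory recombination factors, Rad51c, Xrcc3 and Rad51b, 1 did. Rad54l read 8.65, 8.59 and 8.63 in DMSO and 7.97, 8.06 and 8.02 in TKI258 arrays, a log2 change of -0.60 (SE 0.06, adjusted p = 0.000109). Rad54b had -0.58 (SE 0.08, adjusted p = 0.000646). Among the accessory factors, which assist strand exchange, Rad51c fell by 0.32 (SE 0.08, adjusted p = 0.0201), a call that was lost without DMSO replicate 2 or TKI258 replicate 2 (adjusted p = 0.0759 and 0.0702, range 0.00755 to 1). Xrcc3 had a change of -0.15 (95% interval -0.34 to 0.03) and Rad51b of 0.12 (-0.05 to 0.28), and neither passed (adjusted p = 0.228 and 0.303 in limma).

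Of the genes of the MRN complex, which senses breaks and starts resection, Mre11a and Nbn passed and Rad50 did not. Mre11a, the nuclease of the complex, read 9.89, 9.90 and 9.90 in DMSO and 9.40, 9.31 and 9.41 in TKI258 arrays. Its change was -0.52 (SE 0.06, adjusted p = 0.00026). Nbn, the adaptor that binds ATM, fell by 0.30 (SE 0.06, adjusted p = 0.00492), while its dimmer probe set had -0.04 when tested singly (adjusted p = 0.82), and the mean of both did not pass (adjusted p = 0.0715, range 0.000997 to 1). Rad50, the coiled-coil ATPase of the complex, read 9.44, 9.53 and 9.29 in DMSO and 9.41, 9.34 and 9.31 in TKI258 arrays. Its groups overlapped, with a change of -0.07 (95% interval -0.24 to 0.11, adjusted p = 0.617).

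**Figure D3:**
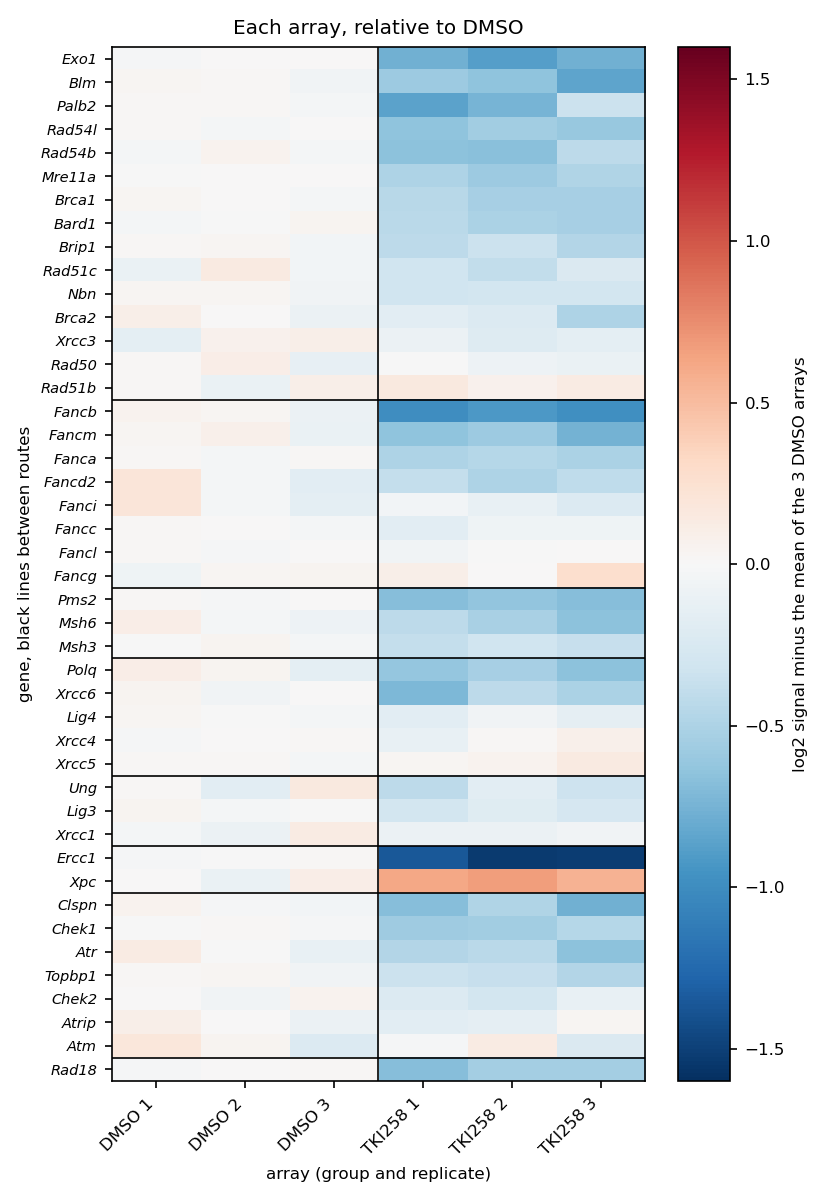
The map gives each member's log2 signal in each of the 6 arrays minus the mean of its 3 DMSO arrays, with genes in rows by route and arrays in columns. Blue is below and red above DMSO. The 3 TKI258 columns are blue in most rows, deepest in Ercc1 and Fancb, and Xpc is the row with the strongest red.

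Of 19 further recombination genes outside the 45, 9 were lower and 1 higher, with a median of -0.165. Dna2, a nuclease and helicase of long resection, fell by 1.17 (SE 0.06, adjusted p = 2.6e-06), the resolvase gene Gen1 by 0.66 and Rpa2, a subunit of the single-strand binding protein RPA, by 0.56. The gene that rose was Wrn, the Werner syndrome helicase, at 0.39 (adjusted p = 0.00398), and it was singled out after its value was seen.

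Fanconi anaemia genes divided into 4 that fell and 4 that did not pass, with a median log2 change of -0.277. Fancb, an X-linked gene whose product stabilises the FANCL ligase in the core complex, read 9.17, 9.15 and 9.02 in DMSO and 8.11, 8.19 and 8.14 in TKI258 arrays. Its log2 change of -0.97 (SE 0.07, adjusted p = 1.32e-05) left 0.512 of the DMSO level. Fancm, the translocase that anchors the core complex to DNA, read 7.06, 7.10 and 6.92 against 6.38, 6.45 and 6.27, a change of -0.66 (SE 0.08, adjusted p = 0.000236). Fanca, a scaffold of the core complex, fell by 0.48 (SE 0.06, adjusted p = 0.000323).

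Fancl, Fancc and Fancg, members of the same core complex, did not pass. Fancl, the catalytic ubiquitin ligase, read 8.15, 8.11 and 8.14 in DMSO and 8.07, 8.13 and 8.14 in TKI258 arrays, a change of -0.02 with a 95% interval of -0.16 to 0.12 (adjusted p = 0.874). Fancc had -0.10 (-0.24 to 0.04) and Fancg 0.12 (-0.07 to 0.30), and both missed the threshold (adjusted p = 0.313 and 0.36). The clamp that FANCL ubiquitinates is made of FANCD2 and FANCI. Fancd2 read 7.96, 7.73 and 7.60 in DMSO and 7.38, 7.27 and 7.35 in TKI258 arrays, a fall of 0.43 (SE 0.09, adjusted p = 0.00783). Fanci read 7.49, 7.26 and 7.13 against 7.25, 7.17 and 7.08, and its groups overlapped (-0.13, SE 0.10, adjusted p = 0.416).

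Of 10 other Fanconi genes 4 fell and 0 rose, with a median of -0.184. They were led by Faap24, the DNA-binding partner of FANCM, at -0.93 (SE 0.09, adjusted p = 7.34e-05). Usp1, which removes ubiquitin from the clamp, fell by 0.54 and Ube2t, the conjugating enzyme that works with FANCL, by 0.44. Several recombination genes are Fanconi genes as well. With Brca1, Brca2, Palb2, Brip1 and Rad51c counted in both routes, 9 of 13 Fanconi members fell and the median was -0.413, so the standing of this route depends on how such genes are assigned.

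All 3 mismatch repair members fell, with a median of -0.53. Pms2, which nicks the new strand as part of the MutL heterodimer, read 8.78, 8.74 and 8.76 in DMSO and 8.08, 8.13 and 8.08 in TKI258 arrays. The arrays of a group lay close together, and the change was -0.67 (SE 0.06, adjusted p = 5.25e-05). Msh6, which recognises single mismatched bases, read 9.23, 9.08 and 9.04 against 8.70, 8.6 and 8.46, a change of -0.53 (SE 0.08, adjusted p = 0.00131). Msh3, which recognises longer loops, fell by 0.36 (SE 0.06, adjusted p = 0.0021). The E2F words shown above stand in the windows of Msh6 and Msh3, and none was found in that of Pms2. Of the other mismatch genes measured, Pms1 fell by 0.51 (adjusted p = 0.000248 in limma) and Mlh3 had a change of 0.05.

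Of the 5 end joining members 2 fell and 0 rose, with a median of -0.126. Polq, the polymerase of the microhomology-mediated branch, read 7.83, 7.77 and 7.57 in DMSO and 7.10, 7.19 and 7.07 in TKI258 arrays, a change of -0.60 (SE 0.08, adjusted p = 0.000519). In the classical branch the genes of the final ligase did not pass. Lig4 had -0.13 (95% interval -0.27 to 0.02, adjusted p = 0.204) and its scaffold Xrcc4 -0.01 (-0.17 to 0.15, adjusted p = 0.968).

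Of the Ku ring, which caps broken ends, the gene of 1 subunit fell and that of the other did not pass. Xrcc6, which encodes Ku70, read 8.30, 8.20 and 8.27 in DMSO and 7.53, 7.84 and 7.75 in TKI258 arrays, a fall of 0.55 (SE 0.09, adjusted p = 0.00121). Xrcc5, which encodes Ku80, read 10.80, 10.80 and 10.75 against 10.82, 10.84 and 10.93. Its change of 0.08 had a 95% interval of -0.06 to 0.22 (adjusted p = 0.43), above the interval of Xrcc6 (-0.74 to -0.36). None of the 5 other end joining genes measured fell. Polm, a polymerase that fills gaps at broken ends, rose by 0.72 (SE 0.09, adjusted p = 0.000431), and the other 4 did not pass.

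Base excision and single-strand break repair had 2 of 3 members lower, both close to the threshold. Ung, which removes uracil from DNA, read 7.05, 6.86 and 7.19 in DMSO and 6.62, 6.86 and 6.70 in TKI258 arrays. The highest TKI258 array came up to the lowest DMSO array, and the fall was 0.31 (SE 0.10, adjusted p = 0.0454). It did not pass without DMSO replicate 1 or 3 or TKI258 replicate 1 or 3 (adjusted p = 0.116, 0.157, 0.133 and 0.107, range 0.0207 to 1). Lig3, the ligase that seals nicks, fell by 0.25 (SE 0.06, adjusted p = 0.0158), a call lost without DMSO replicate 1 (adjusted p = 0.0731, range 0.00466 to 1). Its scaffold Xrcc1 had a change of -0.08 (95% interval -0.25 to 0.08, adjusted p = 0.482). Of 14 other genes of this route 5 fell and 0 rose. The flap nuclease gene Fen1 fell by 0.76 (SE 0.06, adjusted p = 3.92e-05), Tdp1, which frees trapped topoisomerase, by 0.54 and the abasic site nuclease gene Apex1 by 0.43.

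Nucleotide excision repair held both extremes of the list. Ercc1, the non-catalytic subunit of the nuclease that cuts on the 5′ side of a lesion, read 10.54, 10.56 and 10.58 in DMSO and 9.21, 9.03 and 9.05 in TKI258 arrays. The log2 change of -1.47 (SE 0.07, adjusted p = 1.97e-06) left 0.361 of the DMSO level, and 41 of all 19938 genes fell further. Its span in the RefSeq annotation overlaps that of Cd3eap, a gene of RNA polymerase I, by 518 bases, and Cd3eap itself changed by -0.47 (SE 0.08, adjusted p = 0.00203). The positions of the probes are not given in the sources used here, so how much the Ercc1 probe set reads of its neighbour was not tested.

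Xpc, which finds distorted DNA and opens the repair reaction, was the member that rose. It read 6.98, 6.86 and 7.08 in DMSO and 7.60, 7.64 and 7.54 in TKI258 arrays, a change of 0.62 (SE 0.07, adjusted p = 0.000277), or 1.53 times the DMSO level. Of 11 other genes of nucleotide excision repair 2 rose and 2 fell. That is 18.2% each, near the 14.4% higher and 12.6% lower over all genes. Those that rose were Ddb2, which recognises ultraviolet lesions, at 0.43 (SE 0.07, adjusted p = 0.00143) and Xpa, which verifies the lesion, at 0.36 (SE 0.07, adjusted p = 0.00322). Ercc8, a factor of transcription-coupled repair, fell by 0.73 (SE 0.16, adjusted p = 0.00855), and Rad23b, the partner of XPC, had -0.27 (adjusted p = 0.0105) and was named after its value was seen. The partner of ERCC1 in the nuclease, Ercc4, read 7.52, 7.54 and 7.53 in DMSO and 7.58, 7.70 and 7.71 in TKI258 arrays, a change of 0.13 with an adjusted p of 0.186.

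Among 7 checkpoint members 4 fell and 0 rose, with a median of -0.396. The ATR branch, which answers stalled forks, held all 4. Chek1, its effector kinase, read 10.70, 10.74 and 10.70 in DMSO and 10.15, 10.16 and 10.25 in TKI258 arrays, a change of -0.53 (SE 0.06, adjusted p = 0.00025). Clspn, the adaptor that brings CHK1 to ATR, read 8.21, 8.13 and 8.10 against 7.47, 7.66 and 7.38, a change of -0.64 (SE 0.08, adjusted p = 0.000408). Atr itself read 8.04, 7.90 and 7.78 against 7.43, 7.48 and 7.26, with -0.52 (SE 0.09, adjusted p = 0.00203). Topbp1, the activator of ATR, fell by 0.40 (SE 0.07, adjusted p = 0.00179). Atrip, which carries ATR to single-stranded DNA, had a change of -0.10 (95% interval -0.27 to 0.08, adjusted p = 0.456).

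In the ATM branch, which answers broken ends, Atm did not pass and Chek2 lay at the edge of the threshold. Atm read 7.92, 7.79 and 7.52 in DMSO and 7.72, 7.88 and 7.52 in TKI258 arrays, with overlapping groups and a change of -0.04 (95% interval -0.31 to 0.23, adjusted p = 0.868). Chek2, its effector kinase, read 9.0, 8.95 and 9.05 against 8.79, 8.71 and 8.88. Its groups did not overlap, and its change of -0.21 just missed the threshold (SE 0.07, adjusted p = 0.0529). It passed under 5 of 16 alternatives, namely without TKI258 replicate 3 (adjusted p = 0.0306), without dim genes (0.02), with trend and robust (0.0178), with array weights (0.0268) and with the replicate number as a block (0.0473), and the range over all of them was 0.0178 to 1. A difference between the branches was not tested, and the interval of Atm is wide enough to hold a fall like that of Chek2.

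Of 15 other checkpoint genes 8 fell and 0 rose, with a median of -0.315. Tipin, a protector of the replication fork, fell by 0.77 (SE 0.06, adjusted p = 2.72e-05), the phosphatase gene Cdc25a by 0.77 and Rad9a, a subunit of the checkpoint clamp, by 0.53. The clamp's other subunits Hus1 and Rad1, its loader Rad17 and the TIPIN partner Timeless had changes of -0.57, -0.38, -0.39 and -0.35, and each passed. These were named after their values were seen, as was Wee1, the kinase that restrains CDK1, at -0.05 (adjusted p = 0.689). Rad18, the ubiquitin ligase that marks PCNA so that damage can be bypassed, read 9.38, 9.40 and 9.41 in DMSO and 8.71, 8.85 and 8.86 in TKI258 arrays, a change of -0.59 (SE 0.07, adjusted p = 0.000191). Of 11 other genes of damage bypass 2 fell and 1 rose, or 18.2% and 9.09%, against 12.6% and 14.4% over all genes. Polk, a bypass polymerase, fell by 0.37 and the conjugating enzyme gene Ube2n by 0.35. Ube2b, the partner of RAD18, rose by 0.27. The rise of Ube2b was lost without DMSO replicate 3 (adjusted p = 0.0514 in limma, and 0.00937 at the lowest with 1 array left out).

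Genes of subunits that work in 1 complex were set against each other. The within-array difference between both genes was compared for 10 pairs, chosen after the values were seen. Relative to the DMSO mean it changed by -0.63 ± 0.14 (SD of the 3 TKI258 arrays) for Xrcc6 minus Xrcc5 and by -1.6 ± 0.17 for Ercc1 minus Ercc4. It changed by -0.42 ± 0.22 for Atr minus Atrip and by -0.30 ± 0.09 for Fancd2 minus Fanci. For Mre11a and Nbn against Rad50 it changed by -0.45 ± 0.07 and -0.24 ± 0.07, and for Lig4 minus Xrcc4 by -0.12 ± 0.10. In these 7 pairs the DMSO and TKI258 arrays did not overlap, which gave an exact two-sided permutation p of 0.1 (0.143 after adjustment over the 10 pairs), the smallest that 3 against 3 arrays allow. Because the pairs were chosen with their values known, these p-values cannot decide whether the subunits differ. The share of other gene pairs without overlap was not computed. The ± values leave out the SD of the DMSO arrays, which ran from 0.002 to 0.125 over the 10 pairs. In Brca1 minus Bard1 the change was -0.01 ± 0.01, with an SD of 0.064 in the DMSO arrays, and the arrays overlapped (exact permutation p = 0.8). The arrays overlapped as well in Lig3 minus Xrcc1 and Rad51c minus Xrcc3, both at -0.17 (exact permutation p = 0.2).

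**Figure D4:**
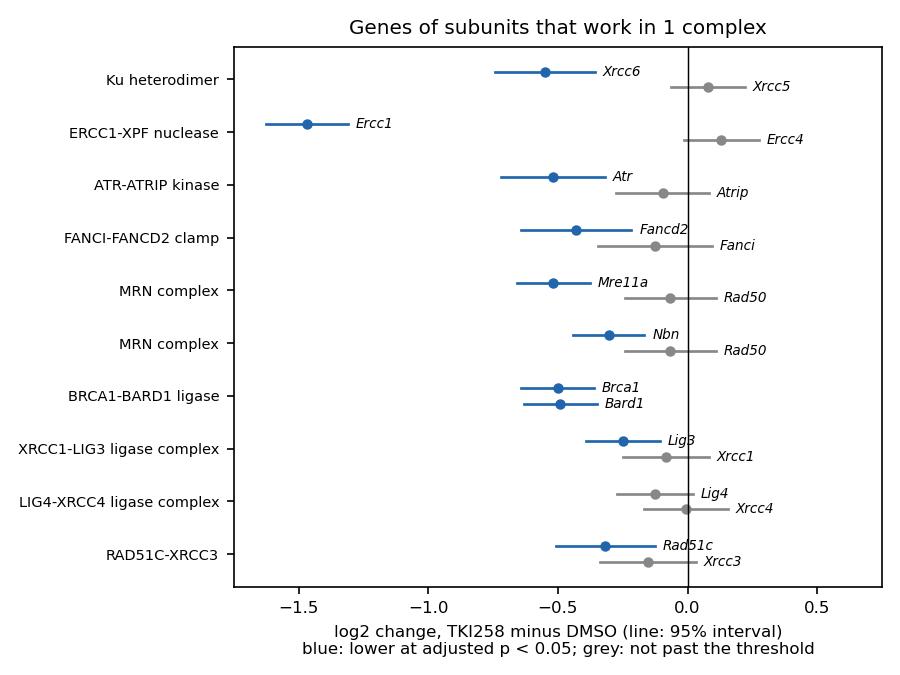
The plot sets the log2 changes, TKI258 minus DMSO, of 2 genes of 1 complex above each other, with points for the change and lines for its 95% interval. Blue genes were lower at an adjusted p below 0.05, and grey genes did not pass. Ercc1 at -1.47 and Ercc4 at 0.13 lie farthest apart, and Brca1 and Bard1 lie closest together.

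Genes that p53 turns on after DNA damage did not share a direction. Of 13 measured, 4 rose, 1 fell and 8 did not pass, with a median log2 change of 0.083. That is 30.8% higher and 7.69% lower, against 14.4% and 12.6% over all genes. The part of p53 in these changes was not tested. Trp53inp1 rose by 2.99 (SE 0.06, adjusted p = 7.43e-08), Gadd45a by 1.23 and Sesn1 by 0.98. Plk2 rose by 0.46 and Mdm2, the ubiquitin ligase that degrades p53, fell by 0.21 (adjusted p = 0.0422), both named after their values were seen. The fall of Mdm2 passed without TKI258 replicate 3 and was lost without each of the other arrays (adjusted p from 0.0339 to 0.128 in limma).

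Across all other repair genes outside the 45, 31 of 87 fell and 5 rose, or 35.6% and 5.75%, with a median of -0.103. That lies between the members (65.9% lower, median -0.405) and all genes (12.6% lower, median 0.015). The end joining and nucleotide excision genes had the medians above 0 among these other genes, at 0.233 and 0.047, while those of recombination, Fanconi, mismatch, base excision and checkpoint genes lay between -0.315 and -0.137.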

How the data were processed

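Array titles gave the groups, and with 3 arrays each their number limits the precision. The deposited values are log2 signals of 35557 probe sets, and the submitters' processing notes list RMA, affy and limma with no word on how each was used. That the scale is log2 was read from the range of the values. RMA usually forces 1 distribution on every array, so a shift common to all genes would be lost, and dim probe sets change too little. The table has no detection calls. The platform annotation of 2016 gave 21789 probe sets 1 gene symbol, 1621 several and 12147 none. Only the first kind was used, and each of 19938 genes took its values from its brightest probe set over the 6 arrays. Gene IDs of 21698 probe sets were found in the RefSeq table of GRCm38.p6, and 0 symbols changed.

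The comparison of TKI258 with DMSO was fitted in limma 3.58.1 (R 4.3.3, lmFit and eBayes, treatment as the only term, no filter). All p-values were two-sided, with Benjamini-Hochberg adjustment across the 19938 genes and a threshold of 0.05. Errors of changes are standard errors (SE) of this fit, and intervals are its 95% intervals. The test was checked on simulated data. The members, the lists and the routes were chosen with earlier results of these data known. All members are named; of each further list, up to 3 genes past the threshold with the smallest adjusted p, or the 1 nearest to it, are named, and any other name was chosen after its values were seen, as were the complexes. Same-numbered arrays of the groups correlated in their deviations at 0.018, 0.05 and 0.151, so the numbers were not taken to pair the dishes. Other settings tried were a block for the replicate number, each array left out, median centring, renewed quantile normalization, a filter on dim genes, probe sets averaged by gene, array weights, eBayes with trend and robust, unmoderated variance, a threshold of 0.01, limma's treat against a fold of 1.2, probe sets tested singly, and members with a second role counted in both routes.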

Additional observations from a re-analysis of the deposited data

How the results depend on the processing

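The 29 falls and 1 rise among the members kept within a factor of 1.5 under all alternatives but 1, limma's treat against a fold of 1.2. Treat left 17 members lower, with 7 in recombination, 3 in Fanconi, 2 in end joining, 1 in mismatch repair, 2 in the checkpoint and 0 in base excision, and over all genes 864 lower and 1057 higher. Of the other repair genes treat left 13 lower and 1 higher. Leaving out 1 array gave 26 to 28 members lower. With the replicate number as a block the members had 29 lower, the other repair genes 8 higher and base excision 1 lower; the numbers are not shown to pair the dishes. The other repair genes had 8 higher as well without dim genes and with trend and robust. Base excision had 1 lower with array weights or unmoderated variance, 0 at an adjusted p of 0.01, and 0 to 2 with 1 array left out. With second roles counted, Fanconi had 9 lower and a median of -0.413. The median of all members was -0.428 after centring and -0.429 to -0.373 with 1 array left out, and that of Fanconi -0.311 after renewed quantile normalization and -0.341 to -0.21 with 1 array left out. Members that had not passed changed sign in 6 cases. With 1 array left out, Fancl ranged from -0.031 to 0.002, Xrcc4 from -0.053 to 0.051 and Atm from -0.15 to 0.054, and after renewed quantile normalization Xrcc4 had 0.005. Of the single-member results under alternatives, 661 kept direction and call, 37 lost the call and 5 gained it. The cause of these shifts was not tested. Depth has no counterpart here, and signal over background is unknown without detection calls.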

Other observations

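Repair genes often lie beside or across another gene, and the neighbours did not share one direction. By the RefSeq table, 28 members had a measured protein-coding neighbour that overlapped them or lay within 1000 bases, in 32 pairs. In 17 pairs the member fell, and there the neighbour fell in 4, rose in 3 and did not pass in 10. The shares over all genes were 12.6% lower and 14.4% higher, and whether the neighbours depart from them was not tested. Both genes fell in the pair Pms2 and Aimp2 (-0.67 and -0.74), which lie beside each other, and in Mre11a and Ankrd49 (-0.52 and -0.68), Fancm and Fkbp3 (-0.66 and -0.25) and Ercc1 and Cd3eap (-1.47 and -0.47). The neighbour rose while the member fell in Brca1 and Nbr1 (-0.50 and 0.46), Rad54l and Lrrc41 (-0.60 and 0.35) and Fancb and Mospd2 (-0.97 and 0.30). Beside Xpc, which rose by 0.62, Lsm3 fell by 0.56. Strand and probe positions were not used, so shared probes in overlapping pairs were not tested.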
